A study of Mus musculus with 20 samples.

Results

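Erythrocytes are the oxygen-carrying cells of the blood, and some were captured in the single-cell libraries of the developing mouse gonad. The cells described here are those that the authors' deposited cell table places in its blood cell group, which is separate from its immune and endothelial groups. They number 2122 of 94705 cells, 850 from XX and 1272 from XY embryos. Embryos of every group had CD-1 mothers and heterozygous Tg(Nr5a1-GFP) fathers, whose reporter transgene lights up the gonadal ridge, so an embryo may or may not have carried it. Urogenital ridges were taken at E10.5 and E11.5, and from E12.5 on (also E13.5 and E16.5) the ovaries of XX or the testes of XY embryos. Each sex and stage has 2 droplet libraries (10x Genomics 3′ chemistry, which counts molecules by their unique identifiers, UMIs), 20 libraries in all. The sources used here do not say how many embryos were pooled in a library, and 2 libraries of a group measure the spread between such pools.

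The first red cells of the mouse are primitive erythroblasts. They arise in the yolk sac, enter the blood while they still have a nucleus, and mature in the circulation as a single wave. Definitive red cells come later from the fetal liver, mature inside erythroblastic islands around macrophages, and enter the blood after they have shed the nucleus. Haemoglobin is built from 2 α-like and 2 β-like chains, and the genes used differ between the lineages. Primitive cells use the embryonic β-like genes Hbb-y and Hbb-bh1 and the embryonic α-like gene Hba-x beside the adult α genes. Definitive cells use the adult β genes Hbb-bs and Hbb-bt with Hba-a1 and Hba-a2.

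In GRCm38 the β-like genes lie on the minus strand of chromosome 7, in the order Hbb-y (chr7:103851749-103853216), Hbb-bh0 (chr7:103850020-103850148, an unprocessed pseudogene), Hbb-bh1 (chr7:103841637-103843164), Hbb-bh2 (chr7:103839124-103840520), Hbb-bs (chr7:103826534-103828096) and Hbb-bt (chr7:103812524-103813996). The α-like genes lie on the plus strand of chromosome 11, in the order Hba-x (chr11:32276400-32278116), Hba-a1 (chr11:32283511-32284465) and Hba-a2 (chr11:32296489-32297298). Alas2, which encodes the erythroid enzyme that starts haem synthesis, lies on chromosome X (chrX:150547375-150570638, plus strand). The 150 bases before the RefSeq start site are shown for 5 globin genes. They are shown because the report turns on the exchange of one set of globin messages for the other. The RefSeq start sites of these genes lie inside the gene coordinates given above, so the windows overlap those coordinates. Capitals mark matches, read on the gene's strand, to the motif CACCC, to the motif CCAAT, and to ATAAA or its near relative TATAA. A match to TATAA that is followed by another A also holds ATAAA, since these overlap.
Hbb-y: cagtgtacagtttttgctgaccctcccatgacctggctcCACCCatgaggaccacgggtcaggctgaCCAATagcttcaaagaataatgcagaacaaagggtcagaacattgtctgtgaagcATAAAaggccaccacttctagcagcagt
Hbb-bs: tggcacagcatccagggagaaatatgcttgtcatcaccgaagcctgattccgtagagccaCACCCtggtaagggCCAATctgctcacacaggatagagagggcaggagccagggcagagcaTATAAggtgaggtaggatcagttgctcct
Hbb-bt: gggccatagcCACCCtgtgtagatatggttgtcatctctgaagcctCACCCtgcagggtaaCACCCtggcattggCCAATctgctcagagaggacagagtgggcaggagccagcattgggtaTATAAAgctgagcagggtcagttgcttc
Hba-x: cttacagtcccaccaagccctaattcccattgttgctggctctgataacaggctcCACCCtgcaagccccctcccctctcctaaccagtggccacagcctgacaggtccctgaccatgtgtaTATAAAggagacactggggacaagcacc
Hba-a1: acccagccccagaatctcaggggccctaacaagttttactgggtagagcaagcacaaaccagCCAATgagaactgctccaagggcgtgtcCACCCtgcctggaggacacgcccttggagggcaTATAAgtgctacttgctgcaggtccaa
These windows are chr7:103853208-103853357, chr7:103827929-103828078 and chr7:103813924-103814073 on the minus strand for Hbb-y, Hbb-bs and Hbb-bt, and chr11:32276450-32276599 and chr11:32283522-32283671 on the plus strand for Hba-x and Hba-a1, all in GRCm38.p6. Each window but that of Hba-x holds all 3 kinds of motif, and Hbb-bt holds CACCC 3 times. The motif nearest the start site begins 28 bases before it in Hbb-y, 29 in Hbb-bs and 27 in Hbb-bt. On either strand, CACCC occurred in 37.4%, CCAAT in 24.5%, ATAAA in 24.1% and TATAA in 14.2% of 32851 RefSeq windows of the same length, and all 3 kinds together in 2.103%. A match is a description of the letters and not a binding site.

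Some libraries limit what can be read. E10.5 XX replicate 2 and E11.5 XX replicate 2 held 2 erythrocytes each and were left out of every fit, so E10.5 and E11.5 have 3 libraries and 1 of them is XX. The other 18 libraries held 9 to 311 erythrocytes and 175705 to 6021363 erythrocyte UMIs. The names of the 2 E12.5 XX libraries are exchanged between 2 columns of the cell table, which leaves their sex and stage as they are. Of the erythrocytes, 6 share a barcode with an erythrocyte of another library, and no pair of libraries shared more than 1.48% of its barcodes.

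Alas2, Hbb-bt and Hba-a1 were higher in erythrocytes than in the other cells of the same library in 18 of 18 libraries, as were Slc4a1 and Epb42, which encode the anion exchanger and a protein of the membrane skeleton. Alas2 was at 645 to 1522 CPM (UMIs scaled to an equal library total) in erythrocytes and at no more than 23.4 in the other cells. The authors' clustering used these genes, so the values describe the group and were not tested.

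The globin messages changed from the embryonic to the adult set between E10.5 and E16.5. Hbb-y made up 18.2%, 23.6% and 19.7% of erythrocyte UMIs in the 3 libraries of E10.5 (XX replicate 1, XY replicate 1 and XY replicate 2, an order kept below), and 29.9%, 29.3% and 34.5% at E11.5. At E12.5 it was at 37.8% and 35.1% in the XX and 18.2% and 34.6% in the XY libraries, and at E13.5 at 30.5% and 20.6% in the XX and 15.6% and 24.4% in the XY libraries. At E16.5 its highest value was 0.003%. The E12.5 and E13.5 libraries overlapped, whereas those of E16.5 lay far below all others. Hbb-bh1 fell earlier: it was at 6.4% to 7.1% of UMIs at E10.5, and at 2.8% to 4.0%, 0.38% to 0.68% and 0.11% to 0.38% at the next 3 stages. Hba-x was at 8.5% to 9.6%, 6.3% to 8.2%, 2.5% to 4.7% and 1.3% to 2.9% at the same stages.

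**Figure D1:**
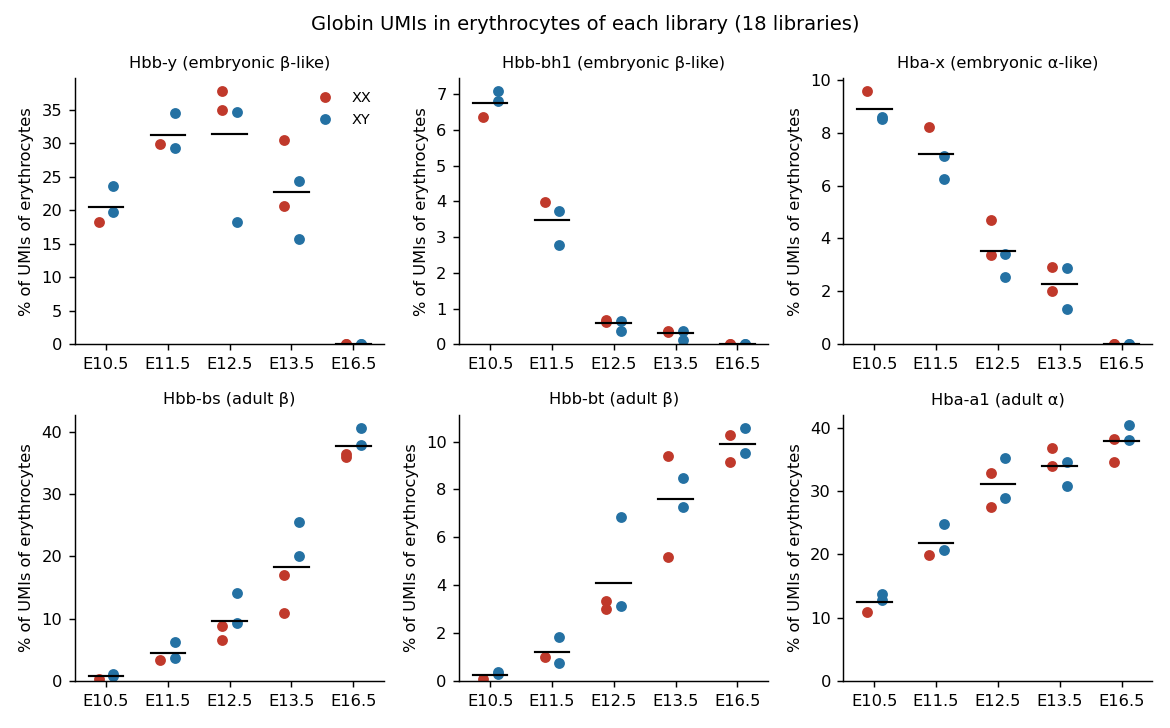
Share of erythrocyte UMIs (percent, vertical axis) from each of 6 globin genes against embryonic day (horizontal axis), 1 point per library (XX red, XY blue, 18 libraries), with a black bar at each stage mean. Hbb-bh1 and Hba-x were highest at E10.5, and the stage means of Hbb-bs, Hbb-bt and Hba-a1 rose to E16.5. Hbb-y rose from E10.5 to E11.5, overlapped between E11.5 and E12.5, and was lowest at E16.5.

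The adult genes moved the other way. In stage order, Hbb-bs was at 0.29% to 1.16%, 3.4% to 6.2%, 6.5% to 14.1%, 10.8% to 25.5% and 35.9% to 40.7% of UMIs. Hbb-bt was at 0.093% to 0.352%, 0.74% to 1.81%, 3.0% to 6.8%, 5.2% to 9.4% and 9.2% to 10.6%. Hba-a1 was already at 10.9% to 13.8% of UMIs at E10.5 and reached 34.5% to 40.6% at E16.5. The plot of globin shares by stage shows that Hbb-bs and Hbb-bt did not overlap between E11.5 and E12.5, and that the widest spread was at E12.5 and E13.5. The adult pairs Hbb-bs and Hbb-bt, and Hba-a1 and Hba-a2, are near-identical copies, so the split within a pair depends on how reads were assigned and is uncertain.

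Set against all β-like UMIs, the embryonic β-like genes made up, in stage order, 96.7% ± 1.62 and 86.2% ± 2.07 (SD, n = 3 libraries each), then 69.0% ± 14.7, 47.4% ± 14.1 and 0.0062% ± 0.0025 (n = 4 each). Hba-x made up 39.7% ± 4.68, 23.3% ± 4.12, 9.36% ± 2.88, 5.83% ± 2.097 and 0.000465% of the α-like UMIs. Libraries of neighbouring stages did not overlap in either share, except between E12.5 and E13.5. The exact permutation test over libraries (two-sided) gave p = 0.1, 0.0571, 0.0857 and 0.0286 for the 4 steps in both shares, where 0.1, 0.0571 and 0.0286 are the smallest values that 3 against 3, 4 against 3 and 4 against 4 libraries allow. After Benjamini-Hochberg adjustment the smallest exact p was 0.0571, so no step passed 0.05. E12.5 XY replicate 1 stood apart at 47.1%, against 74.1% to 78.3% in the other E12.5 libraries.

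Single cells used nearly all of one set of β-like genes or most of the other. Of the 2122 erythrocytes, 1074 had less than 5% embryonic UMIs among their β-like UMIs and 867 had 80% or more. Another 179 lay between 50% and 80%, and the range from 5% to 50% held 2 cells. With a cut at 50%, all 56 cells of E10.5 and all 80 of E11.5 were embryonic-class cells. At E12.5, 573 cells were of the embryonic and 81 of the adult class. At E13.5 these were 337 and 358, and all 637 cells of E16.5 were of the adult class. In libraries with at least 5 adult-class cells, their median embryonic share was at most 0.299% at E12.5 and 0.0718% at E13.5. In embryonic-class cells it was 82.0% to 88.5% in the libraries of these stages.

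**Figure D2:**
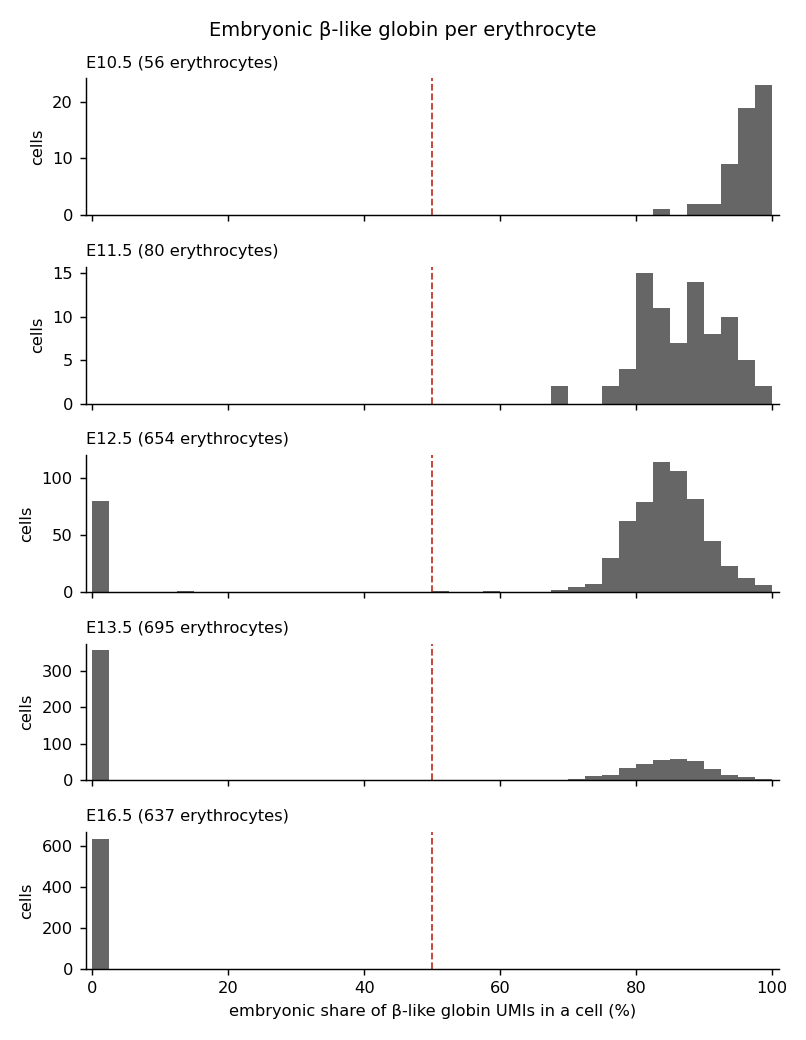
Number of erythrocytes (vertical axis) by the embryonic share of their β-like UMIs (percent, horizontal axis, bins of 2.5 points), 1 panel per stage. The dashed line at 50% separates the classes. Over all stages 1074 cells lie below 5%, 2 between 5% and 50%, 179 between 50% and 80% and 867 at 80% or more.

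The histograms of the embryonic share show one peak at E10.5, E11.5 and E16.5 and a peak at each end at E12.5 and E13.5. The libraries differed in the mix. At E12.5, adult-class cells numbered 3 of 44 and 27 of 311 in the XX libraries and 22 of 51 and 29 of 248 in the XY libraries. At E13.5 they numbered 33 of 124 and 69 of 135 in the XX libraries and 179 of 284 and 77 of 152 in the XY libraries. Adult-class cells were the majority in no library of E12.5 and in 3 of 4 libraries of E13.5, where their share ran from 26.6% to 63.0%.

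Embryonic-class cells kept changing their globins. Hbb-bh1 made up 23.0% to 25.7% of their embryonic β-like UMIs at E10.5 and 7.45% to 11.7% at E11.5. It was at 1.64% to 2.04% at E12.5 and 0.699% to 1.62% at E13.5. Stages did not overlap in this order, so that Hbb-bh1 gave way to Hbb-y within the class. The adult genes made up 1.53% to 4.66% of their β-like UMIs at E10.5, and 11.6% to 15.7%, 14.8% to 17.0% and 13.03% to 18.4% at the next 3 stages. Here E10.5 stood apart, and the later stages overlapped. Hba-x made up 35.6% to 44.8% of α-like UMIs at E10.5, and 19.1% to 27.3%, 8.52% to 12.9% and 8.88% to 15.1% at the next 3 stages. The first 3 stages lay apart, and E12.5 and E13.5 overlapped.

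The share of erythrocytes among cells differed widely between the libraries of a stage. In stage order they made up 0.456% ± 0.435, 0.425% ± 0.419, 2.995% ± 2.25, 2.62% ± 0.457 and 3.98% ± 1.49 of cells (SD, n = 4 libraries each). The E12.5 libraries ranged from 0.968% (exact Clopper-Pearson 95% interval 0.704 to 1.297) to 6.05% (5.42 to 6.74), an interval that covers counting error only. No step passed the exact permutation test over 5 comparisons (E12.5 against E11.5, 2.57 points, p = 0.0571, adjusted 0.286, and 1.55 points without E12.5 XX replicate 2). XX and XY libraries differed by -0.134 percentage points (XX minus XY, permutation p = 0.827, adjusted 0.886). Without mesonephric cells in the denominator the libraries held 0.259% to 3.64% at E10.5, 0.221% to 2.77% at E11.5 and 1.06% to 6.70% at E12.5. On that base these stages overlapped. The tissue taken changed from the whole ridge to the gonad between E11.5 and E12.5, so stage and dissection cannot be told apart at that step. No date in the library names is shared between stages, and the part of date in the stage steps was not tested.

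Erythrocytes of each later stage held fewer UMIs of genes other than globins. The median erythrocyte held, in stage order, 26296 ± 7588 and 6247 ± 966 UMIs of other genes (SD, n = 3 each), then 2999 ± 518, 1910 ± 661 and 596 ± 158 (n = 4 each). Libraries of neighbouring stages did not overlap. Globin UMIs rose from 51.3% ± 2.71 of the cell's UMIs to 72.6% ± 4.07, 86.3% ± 1.81, 90.8% ± 1.22 and 94.3% ± 1.04, also without overlap. For both measures the exact permutation p was the smallest its design allows at each step (0.1, 0.0571, 0.0286 and 0.0286), and none passed after adjustment over 28 comparisons (lowest adjusted p = 0.145). The other cells of the libraries also held fewer UMIs at later stages. Their mean per cell was 26021 ± 1615, 21164 ± 1506, 19239.8 ± 1526, 18614 ± 4811 and 12399.6 ± 2318 UMIs in stage order (SD, n = 4 libraries each), and the part of depth in the fall was not tested.

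Genes detected per cell fell from a median of 4345 ± 603 at E10.5 to 364 ± 127 at E16.5. At an equal 1000 UMIs per cell the library medians were 311 to 355, 174 to 226, 98 to 110.5, 61 to 76 and 37.5 to 62 genes in the order of stages, and neighbouring stages overlapped only at the last step. At an equal 200 UMIs of genes other than globins, where 25 cells were too shallow, they were 160 to 164, 153 to 160, 124 to 146, 121 to 129 and 122 to 159.5. On that scale the libraries of the last 3 stages overlapped. The authors' phase calls, with any cells labelled postmitotic counted as G1, put no E10.5 cell in G1. At the later stages they put 62.0% ± 23.3, 63.2% ± 9.14, 58.8% ± 7.23 and 52.3% ± 7.93 of cells there. In S phase they put 64.1% ± 7.38 of E10.5 cells and 3.21% ± 5.55 of E11.5 cells. These calls read genes whose UMIs per cell differ between stages as above, no step passed adjustment (lowest adjusted exact permutation p = 0.145), and cell cycle genes are given below.

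Gene by gene, UMIs were summed over the erythrocytes of each library and a quasi-likelihood test in edgeR compared the stages over 5321 genes, with XX and XY libraries together. A gene was called where the Benjamini-Hochberg adjusted p was below 0.05 and the log2 fold change was at least 0.36 in size. Levels below are TMM CPM, CPM after edgeR's TMM scaling, which centres the typical gene. In such sums, fewer cells that express a gene and less of its RNA per cell cannot be told apart. As a share of all UMIs, globins included, the median gene changed by -0.71, -1.46, -0.56 and +0.39 on the log2 scale at the 4 steps and by -2.49 from E10.5 to E16.5, so the changes below are relative to these. The groups did not overlap in 33.7%, 19.2% and 4.44% of all genes tested at the first 3 steps, in 614 of 5321 genes at step 4, in 24.9% from E10.5 to E16.5 and in 0.0376% between sexes. All called falls kept their direction as a share of all UMIs. So did all 108, 5 and 165 called rises of steps 1, 3 and 4, 131 of 185 at step 2, and 211 of 629 from E10.5 to E16.5.

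From E10.5 to E11.5, 151 genes were called (2.84%), 108 higher (2.03%) and 43 lower (0.808%). Genes of late red cell maturation were among the rises. Bcl2l1, which encodes the survival factor BCL-XL, was at 4.38, 7.22 and 6.37 TMM CPM at E10.5 and 33.3, 30.0 and 41.1 at E11.5. All E11.5 libraries lay above those of E10.5, and the log2 fold change was 2.49 ± 0.41 (SE, edgeR adjusted p = 0.0020). The SE of a log2 fold change, here and below, was taken as its size divided by the root of the test's F statistic. In the list of late maturation and organelle clearance, 5 of 14 genes rose and none fell, with a median log2 fold change of 1.22 against 0.00 over all genes tested (2 to 11 rose when 1 library was left out). Among them were Ube2o (2.51), the ubiquitin ligase that clears ribosomal proteins, and Xpo7 (2.42), a nuclear exporter that acts in red cell chromatin condensation. Fech (1.27), which inserts iron into haem, was the called member of 16 haem synthesis genes, and Ncoa4 (1.35), the receptor that delivers ferritin to lysosomes, was that of 11 iron genes. Epb41 (1.34) and Epb42 (1.22), parts of the membrane skeleton, rose of 22 membrane genes. Cat, Gpx4 and Gpx1, which remove peroxides, rose by 1.25 to 1.49 of 16 antioxidant genes.

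The falls of this step were fewer. Mcm6, a subunit of the replicative helicase, was at 32.8, 38.3 and 36.5 TMM CPM at E10.5 and 3.17, 14.2 and 0 at E11.5. The groups lay apart, and with Mcm5 it was the called part of 26 cell cycle genes (median log2 fold change -0.39, none higher). Ppia, an abundant protein-folding enzyme, fell from 404 to 622 to between 66.3 and 170 TMM CPM (log2 fold change -2.07 ± 0.33, edgeR adjusted p = 0.0018). Ldha, the glycolytic lactate dehydrogenase, fell by 1.76 on the log2 scale, and Nme1, Ranbp1 and Nhp2, which encode a nucleotide kinase, a partner of the transport factor Ran and a small RNA-binding protein of the nucleolus, by 1.45 to 1.70. None of 40 ribosomal protein genes was called (median -0.36). All E10.5 and E11.5 cells are of the embryonic class. When that class alone was fitted across E10.5 to E13.5, an alternative added after the data were seen, 543 of 5090 genes were called (10.7%, 5.56% higher and 5.11% lower), with 11 of 13 late maturation genes higher and 7 of 26 cell cycle genes lower. The step depends on each of its 6 libraries: without 1 of them 22 to 88 genes were called, and when E16.5 XX replicate 2 was dropped, which takes part in the estimate of the spread, 350. Leaving out the cells of E12.5 to E16.5 that held under 50% globin UMIs, also added after the data were seen, gave 411 of 5278 genes (7.79%), although none of these cells is of E10.5 or E11.5, with 10 of 14 late maturation genes higher and 7 of 26 cell cycle genes lower. Markers of other cells moved too. Wt1 of the gonadal soma rose by 2.92 and the platelet gene Vwf was at 16 against 3 UMIs, while germ cell Pou5f1 was at 40 against 3. The germ cell list was at 212 CPM of non-globin UMIs in E11.5 XY replicate 1, and at 34.1 and 50 in XX replicate 1 and XY replicate 2. Whether cells or free RNA of those types took part was not tested.

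From E11.5 to E12.5, 226 genes were called (4.25%), 185 higher (3.48%) and 41 lower (0.771%). With globin genes left out of the counts the split was 143 higher against 60 lower. Hmox1, which encodes the enzyme that breaks haem down, changed most among genes of sufficient level. It was at 0 to 1.48 TMM CPM in the 6 earlier libraries and at 148, 136, 74.2 and 57.2 at E12.5 (XX replicates 1 and 2, XY replicates 1 and 2), a log2 fold change of 6.37 ± 0.69 (edgeR adjusted p = 1e-05). No E12.5 library came near an earlier one. Mkrn1, which encodes a ubiquitin ligase, went from 78.4 to 101.1 to between 631 and 793 TMM CPM. The nuclear long noncoding RNAs Malat1 and Neat1 rose over these steps: Malat1 was at 476 to 562 TMM CPM at E10.5, 1488 to 2120 at E11.5 and 5790 to 8796 at E12.5.

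Ferritin and late maturation genes rose with Hmox1. Ftl1 and Fth1, the light and heavy chains of the iron store ferritin, rose by 1.94 and 1.66, to 7372 to 11165 and 8423 to 17392 TMM CPM, and kept that direction as a share of all UMIs. Of 14 late maturation genes, 7 rose and none fell (median 1.52, and -0.01 as a share of all UMIs), and 5 of the 7 also rose as a share of all UMIs. Tspo2, a red cell membrane protein of late maturation, had no UMI at E11.5 and 185 at E12.5, at least 29.4-fold higher. Bnip3l, the receptor through which red cells remove mitochondria, went from 121, 129 and 193 to 739, 765, 704 and 829 TMM CPM. In haem synthesis, 5 of 16 genes rose and 1 fell, and 3 of the 5 also rose as a share of all UMIs: Slc25a39 and Glrx5 rose by 1.71 and 1.87, and Tmem14c, a porphyrin carrier of the mitochondrion, fell from 212 to 259 to between 41 and 84.1 TMM CPM. The cell cycle list had 3 of 26 genes lower (Cdk1, Tyms and Ccnd3) and none higher. The transcription factor Tal1 rose by 2.30, and Sox6, which silences embryonic globin genes in definitive cells, had 38 against 1 UMI, an 18.1-fold difference with a counting interval of 3.06 to 734.

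Embryonic-class cells alone gave 672 of 5090 genes at this step (13.2%, 7.7% higher and 5.5% lower). Among them 15 of 26 cell cycle genes fell (median -1.29) and none rose, 9 of 13 late maturation genes rose and 1 fell, and 8 of 16 antioxidant genes rose and none fell. In haem synthesis 5 genes rose and 7 fell, and in the membrane list 2 rose and 5 fell. Klf1, a master regulator of red cell genes, fell by 1.53 (edgeR adjusted p = 0.00019). Sums of at least 20 cells leave 1 library at E11.5 and 3 genes called, Hmox1, Tspo2 and the unnamed gene AC153937.4. The counts also fell to 60 and 68 when XY or XX replicate 1 of E11.5 was dropped, and to 144 for XY replicate 2 of E12.5, and rose to 460 (8.72%) without the cells with under 50% globin, with 12 of 14 late maturation genes higher and 10 of 26 cell cycle genes lower. Nr5a1 of the gonadal soma rose by 3.55 and Amh of Sertoli cells had 33 UMIs against none, and their part in the result was not tested.

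**Figure D3:**
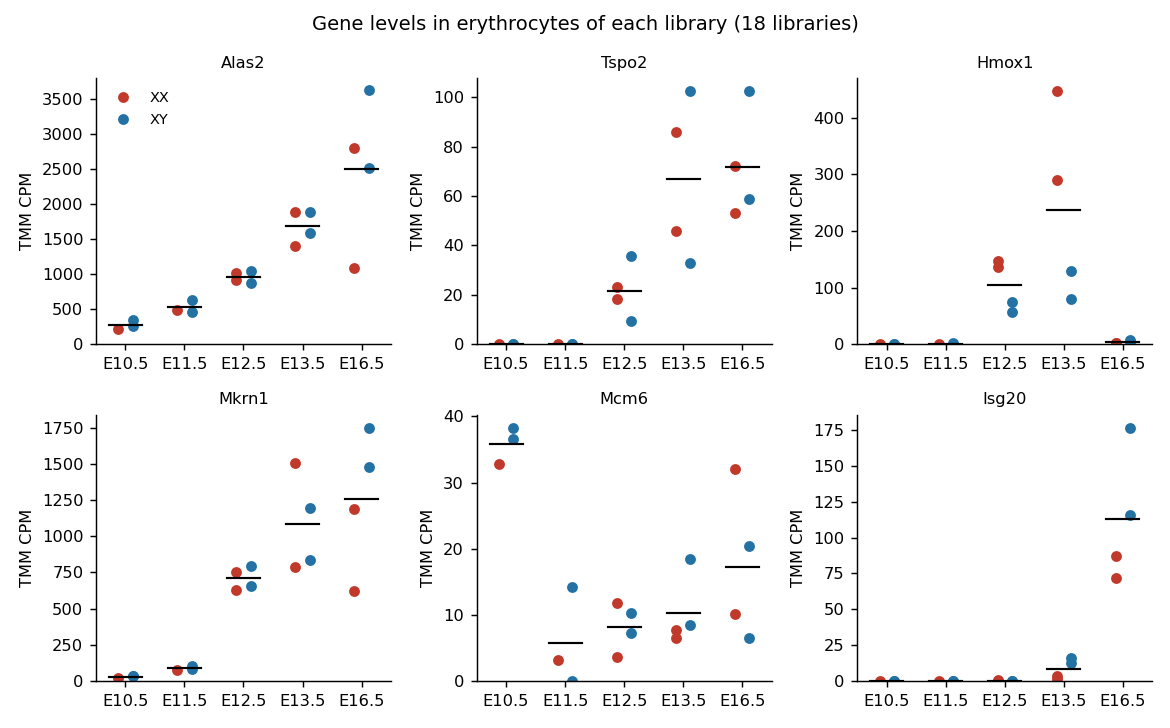
Level of 6 genes in erythrocytes (TMM CPM, vertical axes) against embryonic day, 1 point per library (XX red, XY blue, 18 libraries) with a black bar at each stage mean. The stage means of Alas2 and Mkrn1 rose from E10.5 to E16.5, Hmox1 was high at E12.5 and E13.5 only, Tspo2 had no UMI before E12.5, Mcm6 fell after E10.5, and Isg20 was highest at E16.5.

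From E12.5 to E13.5 few genes differed. The test called 8 genes (0.15%), 5 higher (0.094%) and 3 lower (0.0564%), and 376 genes had an unadjusted p below 0.05. Isg20, an interferon-stimulated exonuclease gene, was at 0 to 0.69 TMM CPM at E12.5 and at 1.63, 3.09, 16.0 and 12.46 at E13.5, without overlap (log2 fold change 4.15). Pla2g16, Ssx2ip, Vangl1 and Fam220a rose by 1.39 to 1.94, and the genes that fell included Ackr3 (-1.98) and Agpat4 (-1.76). No member of the haem, iron, membrane, maturation, cell cycle or globin lists was called. Without the cells with under 50% globin, 2 of 4 adult globin, 3 of 14 late maturation, 2 of 16 haem, 1 of 11 iron and 1 of 22 membrane genes were called higher. The number depended on the libraries, from 0 without E12.5 XY replicate 2 to 21 without E16.5 XX replicate 2, and was 56 (1.06%) without those cells. Embryonic-class cells alone gave 78 genes (1.53%, 1.22% higher and 0.314% lower), including Ftl1 (0.93 higher). Adult-class cells alone gave none of 3339 (0%), with 138 at an unadjusted p below 0.05.

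From E13.5 to E16.5, 583 genes were called (11%), 165 higher (3.1%) and 418 lower (7.86%). This step also removed every embryonic-class cell. Hmox1 returned to 1.45, 2.53, 7.85 and 4.32 TMM CPM from 447, 289, 80.6 and 130, below all E13.5 libraries. Fth1 fell from between 10060 and 18958 to between 2321 and 4517 TMM CPM and Ftl1 by 1.71 on the log2 scale. Pdzk1ip1, a small membrane protein gene, fell from 94.2 to 478 to between 0 and 7.40 TMM CPM. All 5 tested embryonic globin genes fell. So did 16 of 40 ribosomal protein genes, 7 of 22 membrane genes (Xk -3.71, Kel -2.66, Ermap -2.54, which carry blood group antigens), 6 of 16 antioxidant genes, 3 of 14 erythroid transcription factors (Tal1 -3.43, Lyl1 -2.33, Foxo3 -1.45) and 3 of 10 cell cycle exit genes, with no rise in any of these lists. Arid3a and Hmga2, of the globin switch list, fell by 4.09 and 2.34.

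The split of this step depended on the libraries: without E16.5 XX replicate 2, 381 genes were higher and 342 lower, and without E13.5 XY replicate 2, 50 were higher and 270 lower. Without the cells with under 50% globin these were 359 and 452 (811 called, 15.4%). Isg20 reached 86.8, 71.6, 177 and 116 TMM CPM, above all earlier libraries (log2 fold change 3.84 ± 0.38). Of 9 genes of the mitochondrial genome 5 rose, by 0.85 to 1.72, and none fell (0 to 9 rose when 1 library was left out, with 9 without E16.5 XX replicate 2). The glycolytic gene Pgam1 rose by 1.37, while Gapdh fell by 2.16 and Pklr, the red cell pyruvate kinase gene, had 40 UMIs at E13.5 and none at E16.5 (at least 8.39-fold lower). Of 7 stroma genes of the gonad 5 rose (Col3a1 at 5.05 to 109 against 6.53 to 8.5 TMM CPM, so the groups overlap), and 4 of 9 dissociation stress genes. The summed stroma list of 10 genes was at 188 to 334 CPM of non-globin UMIs in E13.5 erythrocytes. At E16.5 it was at 1460 and 120 in the XX and 3345 and 2177 in the XY libraries. The other cells of these libraries had 1870, 1594, 4414 and 4358. The macrophage list exceeded the other cells in E16.5 XY replicate 1 (212 against 79.6), and the endothelium list in E16.5 XX replicate 1 (174 against 143). Both lists were below the other cells in the remaining E16.5 libraries. The megakaryocyte and platelet list was above the other cells in E16.5 XY replicate 1 (30.3 against 28.2) and XX replicate 2 (11.4 against 10.1). It was below them in E16.5 XX replicate 1 and XY replicate 2. Of the earlier libraries in the fit, it was below them only in E10.5 XY replicate 1 and E13.5 XX replicate 2. At E11.5 it was at 51.2, 42.04 and 175, against 9.25, 21.9 and 43.6 in the other cells. The part of these lists in the result was not tested. In adult-class cells alone, 5 of 3339 genes were called (0.15%, 0.0898% higher and 0.0599% lower), with 460 at an unadjusted p below 0.05. They were Isg20 (2.94), Pdlim3 and Cyp17a1, a Leydig cell gene, higher, and Krt15 and Cldn13 lower, named after their values were seen. No member of any list of red cell genes was called there, and the median of the ribosomal list was -0.05 against -0.58 in all erythrocytes.

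Over the whole span, E16.5 against E10.5, 942 genes were called (17.7%), 629 higher (11.8%) and 313 lower (5.88%). With globin genes left out of the counts these were 760 and 566, and without E16.5 XX replicate 2 they were 751 and 634. Without the cells with under 50% globin 1726 of 5278 genes were called (32.7%), 833 higher and 893 lower, with 21 of 26 cell cycle, 32 of 40 ribosomal and 8 of 16 haem genes lower. Alas2 was at 210.5, 346 and 259 TMM CPM at E10.5 and at 2801, 1083, 3626 and 2518 at E16.5, a log2 fold change of 3.24 ± 0.33 (edgeR adjusted p = 2.1e-07) that was 0.57 as a share of all UMIs. Of 14 late maturation genes 13 rose and none fell (median 3.39), and 9 of the 13 also rose as a share of all UMIs. Mkrn1 reached 624 to 1749 TMM CPM from 17.5 to 32.7. Tspo2 was at least 234-fold and Isg20 at least 338-fold higher, with no UMI at E10.5. Mpp1, a membrane skeleton protein, was 221-fold higher (3 UMIs at E10.5, interval 74.8 to 1075). The folds of these genes are on the TMM scale. As a share of all UMIs the median gene changed by -2.49 on the log2 scale, so they are smaller on that base.

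Other lists split over the span. In haem synthesis 5 of 16 genes rose and 2 fell (Tmem14c and Alad), and 2 of the 5 also rose as a share of all UMIs. Among the erythroid transcription factors Lmo2 and Klf3 rose by 2.15 and 1.98, a direction both lost as a share of all UMIs. Sox6 was at least 25.3-fold higher, and Gata1 and Klf1 fell by 1.56 and 1.397. At E16.5, 9 of the 10 cells with under 50% globin and 14 of the other 627 held Sox6 UMIs. Klf1 was at 70.8, 78.0 and 86.7 TMM CPM at E10.5 and at 11.6, 71.6, 9.16 and 29.0 at E16.5, where XX replicate 2 reached the E10.5 range. Epor, the erythropoietin receptor, fell by 2.36. The cell cycle list had 3 of 26 genes lower, and 16 without E16.5 XX replicate 2. The ribosomal list had 10 of 40 lower and none higher, and 30 lower without that library, and the haem list then had 7 lower. Krt15 was 296-fold lower (1 UMI at E16.5, interval 52.9 to 11708), and the metallothionein genes Mt1 and Mt2, which bind metals and are near copies of each other, fell by 2.38 and 2.79. All 7 tested stroma genes rose, 6 of them also as a share of all UMIs, and the part of other cells was not tested.

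E12.5 and E13.5 hold both classes in the same libraries, so adult- and embryonic-class cells could be compared library by library, with the library as a block. The 7 libraries with at least 5 cells of each class were used. Adult-class cells held fewer UMIs (18503 ± 3073 against 22177 ± 4154, means of library medians, SD, n = 7), fewer UMIs of genes other than globins (1503 ± 468 against 2725 ± 666) and a higher globin share (92.4% ± 1.84 against 87.6% ± 1.94), each in 7 of 7 libraries. At an equal 1000 UMIs they showed 65.5 ± 14.5 against 92.1 ± 14.9 genes, lower in 7 of 7. At an equal 200 UMIs of other genes the order turned, 139 ± 9.14 against 127 ± 8.395, higher in 7 of 7 (1 cell too shallow). The exact sign-flip permutation test gave p = 0.0156 for each, the smallest that 7 pairs allow. After adjustment over 10 measures it was 0.0174, and the comparisons at equal UMIs, added later, are unadjusted.

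Of 3248 genes tested, 1094 differed between the classes (33.7%), 460 higher (14.2%) and 634 lower (19.5%) in adult-class cells, and the classes did not overlap in 23.9%. All called genes kept their direction as a share of all UMIs, where the median gene was 0.28 higher. The classes were set from β-like globin UMIs, so globins are not read here. In 4 of the 7 libraries, 1 to 4 adult-class cells with under 50% globin UMIs held 25.3% to 49.8% of the class's UMIs of other genes. Without such cells, 1105 of 2536 genes were called (43.6%), 479 higher and 626 lower. Of the genes named below, Blvrb, Map1lc3b and Col3a1 then lost their call, and Aurka and Itga4 were too low to be tested. Genes of red cell membrane proteins were among the rises. Cd47, the signal that spares red cells from macrophages, had a lowest, median and highest level of 24.2, 47.5 and 75.4 TMM CPM in adult-class and 0.616, 1.22 and 3.10 in embryonic-class cells (log2 fold change 4.94 ± 0.28, edgeR adjusted p = 5.8e-11). The glucose transporter gene Slc2a1 was at 17.9, 40.8 and 147 against 0.621, 2.62 and 4.16, and Mpp1 at 36.7, 98.5 and 172 against 0, 2.62 and 5.59. In none of these genes did the classes overlap. Of 21 membrane genes 8 were higher and 2 lower (Xk -2.33, Add2 -0.90), with a median of 0.50 against 0.03 over all genes tested, and 13 were higher and 2 lower without the cells with under 50% globin.

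Haem and iron genes moved in both directions. Of 16 genes in the haem list, which also holds genes of haem breakdown, 8 were higher in adult-class cells (Cpox 1.85, Urod 1.65, Ppox 1.31, all enzymes of the synthesis pathway) and 3 lower. The lower ones were Hmox1, Blvrb and Abcb10 (-0.95), a mitochondrial transporter that haem synthesis in red cells needs. Alas2 was at 461, 1186 and 2284 TMM CPM against 380, 575 and 822, higher in 6 of 7 libraries with overlapping classes (log2 fold change 1.09 ± 0.24, edgeR adjusted p = 0.0013). The mitochondrial iron importer gene Slc25a37 was 2.26, the transferrin receptor gene Tfrc 1.23 and Ncoa4 1.01 higher. The ferritin genes were lower, as was Hmox1. Hmox1 was at 0, 2.42 and 7.58 TMM CPM against 37.0, 139 and 340 (log2 fold change -5.88 ± 0.39), without overlap. Blvrb, which acts next on the products of haem breakdown, was 0.57 lower (-0.12 without the cells with under 50% globin, edgeR adjusted p = 0.474). Fth1 was 1.94 and Ftl1 1.23 lower.

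**Figure D4:**
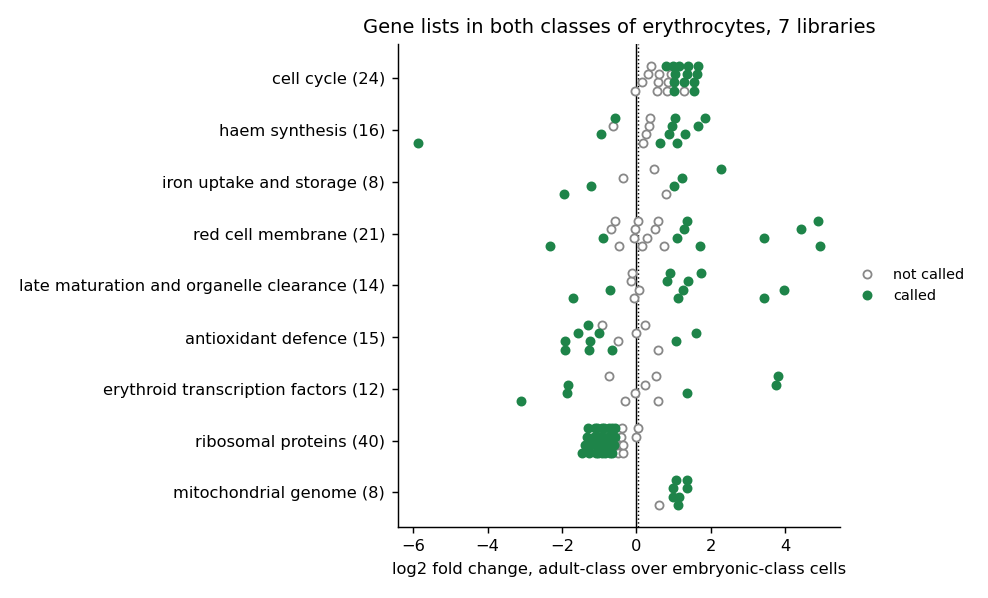
Log2 fold change of adult-class over embryonic-class erythrocytes (horizontal axis) for the tested members of 9 gene lists (rows), 1 point per gene, filled green where called and open where not, from the fit over 7 libraries. The solid line is 0 and the dotted line the median of all tested genes (0.03). Of 40 ribosomal protein genes, 32 were called lower, and of 24 cell cycle genes 13 were called higher.

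The plot of list members by class shows that the called members of the ribosomal list all lay on one side of 0, and those of the cell cycle list on the other. Of 40 ribosomal protein genes 32 were lower and none higher in adult-class cells (median -0.86). Rps7 was at 99.3, 189 and 272 against 311, 514 and 660 TMM CPM, and Rps10 and Rps3 were 1.47 and 1.33 lower. Of 24 cell cycle genes 13 were higher and none lower (median 0.998), among them Aurka (1.67), Tyms (1.62) and Ccna2 (1.56). Cells with under 50% globin held 31 of the 56 Aurka, 46 of the 100 Tyms and 82 of the 175 Ccna2 UMIs of the adult class. Without them 9 of 17 tested cell cycle genes were higher and none lower (median 0.914). The mitotic gene Ube2c was at 137, 206 and 729 against 7.75, 14.6 and 28.4 TMM CPM, and Cdc25b, which starts mitosis, was 3.56 higher. The authors' phase calls moved likewise. They are themselves scored from cell cycle genes, so they are not separate from the gene result. G2/M took 50.2% ± 4.82 of adult-class and 24.01% ± 8.31 of embryonic-class cells, and S phase 10.7% ± 5.31 and 6.14% ± 2.23, both higher in 7 of 7 libraries (exact sign-flip permutation p = 0.0156, adjusted 0.0174). Of 8 tested genes of the mitochondrial genome 7 were higher (median 1.08) and none lower.

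Regulators differed as well. Sox6 was at 6.11, 11.4 and 17.1 TMM CPM in adult-class and 0, 0.616 and 3.51 in embryonic-class cells, and Klf1 at 16.9, 27.7 and 40.4 against 6.98, 10.52 and 17.6. Cells with under 50% globin held 39 of the 87 Sox6 UMIs of the adult class and 88 of its 175 Tfrc UMIs. Without them Sox6 was 4.23, Klf1 1.63 and Tfrc 1.28 higher. Lmo2 was 3.74 higher, and Tal1, Gfi1b and Lyl1 were 3.11, 1.86 and 1.85 lower, so of 12 erythroid transcription factors 3 were called in each direction. Arid3a went the other way to Sox6, at 0, 0.679 and 2.53 against 11.4, 21.1 and 43.1. Hmga2 differed by 0.47 ± 0.31, which did not pass (edgeR adjusted p = 0.275). Late maturation was higher in 8 of 14 genes (Tspo2 3.98, Xpo7 1.73) and lower in 2 (Mxi1 and Map1lc3b). The cell cycle exit genes E2f2 and E2f4 were higher and Btg1, Cdkn1b and Cdkn1a lower. Of 15 antioxidant genes 8 were lower (Sod1 -1.93, Gclc -1.92, Prdx6 -1.58) and 2 higher (median -0.93). Itga4, an integrin of erythroblasts, had 40 against 3 UMIs, a 29.9-fold difference with an interval of 9.51 to 151.

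Among the other strong falls, Pdzk1ip1 was at 0, 2.42 and 7.58 TMM CPM in adult-class and 173, 244 and 405 in embryonic-class cells. Nudt4, which hydrolyses inositol phosphates, was at 6.11, 19.4 and 42.9 against 344, 471 and 1110, and Acp5, an iron-containing acid phosphatase, at 1.26, 4.08 and 11.47 against 81.1, 95.5 and 140. These classes did not overlap. Car1, the red cell carbonic anhydrase, had 54 UMIs, 28 of them in cells with under 50% globin, against none (at least 40.3-fold higher), and the water channel gene Aqp8 none against 74 (at least 11.0-fold lower), but DESeq2 called neither. Of the markers of other cells, endothelial Pecam1 was 2.89 and stromal Col3a1 1.11 lower in adult-class cells. Without the cells with under 50% globin, 1 of 2 tested supporting and Leydig markers was called higher, and none of 9 stroma genes was called. Of 8 stress genes 3 were lower (Hspa1a, Junb and Dnajb1). The part of other cells and of stress in the result was not tested. Leaving out each library in turn gave 864 to 1071 called genes.

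The 2 classes also differed in the split of UMIs assigned to the pair Hbb-bs and Hbb-bt, and the part of read assignment was not tested. In the cells with at least 50 adult β UMIs, the Hbb-bt share of these UMIs varied widely between embryonic-class cells and little between adult-class cells. Its SD between cells was 19.9 ± 5.75 points in embryonic-class and 4.34 ± 1.203 points in adult-class cells (SD over 7 libraries), larger in embryonic-class cells of all 7 (exact sign-flip permutation p = 0.0156, adjusted 0.0174). Counting error alone gives 1.14 to 1.75 points and 0.475 to 0.676 points in these stages. Embryonic-class cells with over 80% Hbb-bt numbered 17 of 283 in E12.5 XX replicate 2 and 0 to 7 in the other 6 libraries, and each library held at least 7 with under 20%. No adult-class cell had over 80%, and 0 to 17 cells a library had under 20%. The share over all UMIs of a class, 32.6% ± 10.7 against 29.8% ± 2.80, differed by less than the spread (p = 0.422 by the same permutation test). At E16.5 it was 18.9% to 22.2%, below all adult-class libraries of E12.5 and E13.5.

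**Figure D5:**
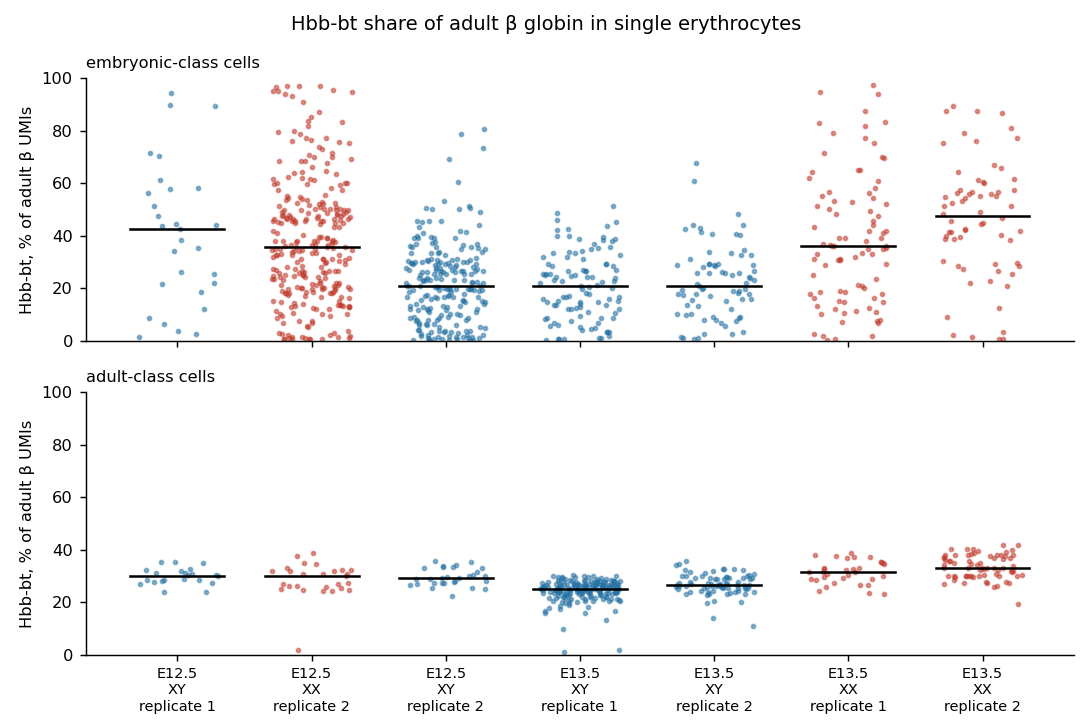
Hbb-bt share of adult β UMIs (percent, vertical axis) per erythrocyte with at least 50 such UMIs, for embryonic-class cells (upper panel) and adult-class cells (lower panel) of the 7 libraries with both classes (horizontal axis). Black lines are medians. The embryonic-class points of a library reach up to between 51.5% and 97.6%, and most adult-class points lie close to their medians, with a tail down to 0.84% in E13.5 XY replicate 1.

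The per-cell plot of the Hbb-bt share shows this width in each of the 7 libraries. The share of Hba-a2 among the adult α UMIs did not behave so, and followed the library in both classes. Its median was 23.9% and 22.4% in embryonic- and adult-class cells of E12.5 XY replicate 1, and 13.47% and 13.2% in E13.5 XX replicate 1. In the other 5 libraries it was between 5.19% and 8.22%. Adult-class cells were lower in all 7 libraries, by 0.631 points on average (exact sign-flip permutation p = 0.0156, adjusted 0.0174).

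Some cells called erythrocytes held little globin. Under 50% globin UMIs were found in 19 cells of E10.5 (6 or 7 in each of the 3 libraries) and 5 of E11.5, and from E12.5 on in 7, 6 and 10 cells. The 16 of E13.5 and E16.5 were all of the adult class, all called S or G2/M and all in the same 1 of the 2 clusters that make up the group. They were few but held many UMIs. In E16.5 XX replicate 2, 6 of 88 erythrocytes carried 75.5% of the non-globin UMIs, and in E13.5 XY replicate 1 4 of 284 carried 31.7%. Klf1 was at 337 (E13.5) and 536 (E16.5) CPM of non-globin UMIs in them, against 125 and 91 in the other erythrocytes of these stages, and Tfrc at 420 and 318 against 76 and 64. E16.5 XX replicate 2 also had a TMM factor of 1.26, against 0.39 to 0.60 in the other E16.5 libraries.

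Between XX and XY erythrocytes, 12 of 5321 genes differed (0.226%), 2 higher in XX (0.0376%) and 10 lower (0.188%), with stage in the model. Xist, which coats the inactive X chromosome, was at 48 to 145 TMM CPM in XX and 0 to 7.40 in XY libraries, and the Y-linked Ddx3y and Eif2s3y were 3.34 and 3.26 lower in XX. Y-linked UMIs were found in the erythrocytes of 1 of 8 XX libraries, E12.5 XX replicate 2, with 8 of Ddx3y and 21 of Eif2s3y (1.33 and 3.49 CPM, against 2.54 to 6.41 and 5.08 to 11.1 in the E12.5 XY libraries). Without that library no UMI of either remained in XX, so their fitted log2 values of -6.22 and -7.22 depend on the prior count, and 10 genes were called. The calls of Gng13, 6030408B16Rik and Gstm1 were then lost and that of 6030468B19Rik was gained. The others among the 12 were Gng13 (higher in XX) and Ptgds, Asb17, Cst9, Amh, Defb19, Aldh1a1, 6030408B16Rik and Gstm1 (lower). Ptgds, Cst9 and Amh are expressed by Sertoli cells, and Amh rested on 3 against 111 UMIs (22.7-fold, interval 7.57 to 112). Leydig and supporting cell markers in erythrocytes summed to 406 to 651 CPM of non-globin UMIs in 3 E16.5 libraries, 5.72 in E16.5 XX replicate 2 and 8.48 to 200.4 at the earlier stages, against 229 to 1752 in other cells of E16.5, and their part in the result was not tested. None of 8 X-linked red cell genes and no member of the red cell lists differed by sex. The date in the library names could serve as a block only for 10 libraries of 5 dates, where 4 genes were called (Ptgds, Cst9, Aldh1a1 and Xist), and 4 were also called in the same libraries without the block (Ptgds, Aldh1a1, Gstm1 and Xist). The embryonic share of β-like UMIs was 7.66 points higher in XX within stages (permutation p = 0.0139, adjusted 0.0571), or 4.96 without E12.5 XY replicate 1, and that of α-like UMIs 3.44 points (p = 0.0283, adjusted 0.0571), neither past 0.05 after adjustment. As a mean of the shares of single cells, the difference in the β-like share passed (8.00 points, adjusted permutation p = 0.0206).

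The cells of other types in each library held globin UMIs too, at up to 0.79% of their UMIs, and these followed the same course. Their embryonic β share was 96.3%, 87.2%, 68.1%, 50.9% and 0.592% in the order of stages, next to 96.7%, 86.2%, 69.0%, 47.4% and 0.0062% in erythrocytes (4 libraries a stage in other cells). Hba-x made up 42.8%, 28.1%, 8.33%, 5.9998% and 0.097% of their α-like UMIs. At E16.5 the other cells held a larger embryonic share than the erythrocytes.

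Across the 18 libraries, 434 genes could be compared with Hbb-y and Hbb-bt by Pearson's r of log2(CPM + 1), as a description over libraries that share stage and depth. The genes most like Hbb-y were Hba-x (0.990), Hbb-bh0 (0.975), Pdzk1ip1 (0.933), Hbb-bh1 (0.924) and Ehd1 (0.911). Those most like Hbb-bt were Hbb-bs (0.986), Cd24a (0.983), Hba-a1 (0.982), Gabarapl2 (0.980) and Mkrn1 (0.980).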

How the data were processed

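Single cells were measured in 20 libraries. Per the labels and the study's methods, the authors made the UMI counts with Cell Ranger 2.1 on GRCm38, deposited 1 matrix of raw counts (26397 genes) and a cell table, and assigned cell groups by clustering. Doublets were scored by the authors but no cells were removed, and no doublet score was used here. The members and gene lists were chosen with earlier results of these data known. UMI totals were taken from the matrix, and those in the cell table differed in 519 erythrocytes, by at most 0.0589%. UMIs of erythrocytes were summed per library (at least 5 cells, 18 libraries) and fitted in edgeR 4.0.16 by its quasi-likelihood method, after filterByExpr and TMM scaling, with Benjamini-Hochberg adjustment and DESeq2 1.42.0 as an alternative (R 4.3.3). Shares and medians were compared by exact permutation over libraries (Python 3.11.15, SciPy 1.17.1), two-sided, with sex labels exchanged within stages. Embryonic- and adult-class cells were divided at an embryonic share of β-like UMIs of 0.5 and compared with the library as a block, since both classes come from the same library (the deviations correlated at 0.127 to 0.322 in 7 libraries). Named genes were globins and markers, up to 3 called members per list and direction, the 8 largest called rises and falls whose groups did not overlap and whose mean reached 50 TMM CPM in 1 group, and the 5 genes most like Hbb-y and Hbb-bt. Others are named as such. Scripts were tested on simulated counts. Promoter windows were read from RefSeq tables (GRCm38.p6). Intervals cover counting error only. Whether libraries came from separate litters was not given in the sources used here, so p-values measure the spread between libraries. Results for some genes are not reported here.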

Additional observations from a re-analysis of the deposited data

Results flagged for a closer look

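In 72 sets of 4 libraries, 7 held a library that lay far from the other 3 (Dixon's test at the 95% critical value for 4 values), and chance gives about 1 in 20. E12.5 XY replicate 1 had an embryonic share of 47.1% of β-like UMIs, against 74.1% to 78.3% in the other E12.5 libraries. The same library was high in Hba-a2, at 163289 TMM CPM against 23394 to 26837, and in Hbb-bt, at 103233 against 37413 to 46679. E13.5 XY replicate 1 had a median of 12676 UMIs per erythrocyte, against 22082 to 23446, and Hbb-bh1 at 1752 TMM CPM, against 7558 to 8376. E13.5 XX replicate 1 had Hbb-bs at 236657 TMM CPM, against 392957 to 402740. In the cells of other types, E11.5 XX replicate 2 had Hba-x at 38.7% of α-like UMIs, against 23.8% to 25.9%. Of the 20 steps compared between the sexes, none had all libraries of one sex moving against all of the other.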

How the results depend on the processing

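Small cell numbers at E10.5 and E11.5 limit the first steps, and the causes of the differences between settings below were not tested. From E11.5 against E10.5, DESeq2 called 283 genes, sums of at least 20 cells, which leave 1 library at each of these stages, 0 (323 at an unadjusted p below 0.05), cells with under 10% globin left out 295, the 5% of cells with most other-cell markers left out 265 and embryonic-class cells alone 543. For E12.5 against E11.5, no filter on low counts gave 357, sums of at least 20 cells 3 and embryonic-class cells alone 672. For E13.5 against E12.5, DESeq2 gave 31, no filter 41, cells with under 10% globin left out 26, embryonic-class cells 78 and adult-class cells 0. For E16.5 against E13.5, adult-class cells gave 5. For E16.5 against E10.5, no filter gave 1885 and sums of at least 20 cells 372. With the cells of E12.5 to E16.5 that held under 50% globin left out, added after the data were seen, 411, 460, 56 and 811 genes were called at the 4 steps and 1726 for E16.5 against E10.5. For XX against XY, no filter gave 148, globin genes left out 19 and sums of at least 20 cells 62. These counts have unlike bases. The fits tested 5321 genes in the main setting and with DESeq2, 20220 with no filter and 7556 in sums of at least 20 cells. They tested 5299 with cells under 10% globin left out, 4937 with the 5% of cells left out and 4570 with globin genes left out.

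After stage and sex, the deviations of the XX and XY libraries of a date correlated at -0.573 to 0.236 over 5 dates. Deviations from the mean of so few libraries tend to be opposed, so these values cannot show whether the date pairs libraries. As a replicate block, possible in 10 of the 18 libraries, the date gave 4 genes between XX and XY, or 8 with the E12.5 XX libraries exchanged. Without the block the same 10 libraries also gave 4. The last 2 settings were added after the data were seen like those by class and by other-cell markers. Without the replicate block the classes differed in 978 of 2604 genes tested. With germ cells left out of the denominator the share of erythrocytes was 0.266 points higher in XX, and the embryonic β share as a mean over cells was 8.00 points higher in XX (exact permutation adjusted p = 0.0206). In both, sex and library date cannot be told apart at E13.5. The authors' doublet score was to be an alternative and was not run.

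Leaving out 1 library at a time gave 22 to 350, 60 to 322, 0 to 21 and 320 to 723 called genes for the 4 steps, 621 to 1385 for E16.5 against E10.5 (621 without E16.5 XY replicate 1), 9 to 30 for XX against XY (21 or more without any library of E10.5 or E11.5) and 864 to 1071 between classes. The share of erythrocytes then ranged from -0.227 to 0.169 points for E11.5 against E10.5, from 1.55 to 3.25 for E12.5 against E11.5, from -1.05 to 0.645 for E13.5 against E12.5, from 0.818 to 2.02 for E16.5 against E13.5 and from -0.642 to 0.375 for XX against XY, the embryonic β share from -20.3 to -9.92 for E12.5 against E11.5 (-9.92 without E12.5 XY replicate 1) and from 4.96 to 10.4 for XX against XY, and the embryonic α share from 2.96 to 3.91 for XX against XY. The median UMIs ranged from -3075 to 515 for E13.5 against E12.5, and G1 from -6.24 to 14.7 points for E12.5 against E11.5. G2/M ranged from -10.2 to 10.8, -16.8 to 4.12, -0.865 to 7.45 and -0.573 to 4.68 points at the 4 steps. Dazl, a germ cell gene, ranged from -0.27 (without E11.5 XY replicate 1) to 6.31 on the log2 scale for E11.5 against E10.5.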
